A study of Mus musculus with 31 samples.

Results

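Aquaporins are membrane channels for water, and some of them, the aquaglyceroporins, also let glycerol through. Glycerol is set free when fat cells split triglyceride, leaves those cells mainly through AQP7, and enters liver cells mainly through AQP9. In the liver, glycerol kinase turns it into glycerol 3-phosphate. The 2 glycerol 3-phosphate dehydrogenases, GPD1 in the cytosol and GPD2 on the inner mitochondrial membrane, link that molecule to glycolysis, glucose synthesis and the respiratory chain. The genes followed here were Aqp1, Aqp7, Aqp8, Aqp9, Aqp11, Gyk (now Gk), Gpd1 and Gpd2, 8 genes chosen by name. Every probe of the bead array whose annotated symbol was one of these was taken, which gave 15 of 25697 probes for 7 of the 8 genes, of 16593 symbols in all. Gyk matched no probe and was not analysed here.

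The samples were liver and epididymal adipose tissue, below called fat, of male C57BL/6JRj mice aged 16 weeks without any genetic change. For 14 days the mice breathed either normoxia (NO) or intermittent hypoxia (IH), and they were killed on day 15. Each IH cycle lasted 60 s, 30 s at 5% inspired oxygen and 30 s at 21%, for 8 h a day, while NO mice received air in the same cycles. There were 8 NO and 7 IH liver arrays and 8 NO and 8 IH fat arrays, and the study's paper describes only the liver. No deletion, transgene or drug was used. The paper calls the liver samples biological replicates, 7 to 8 per group. The labels number the samples without saying that each came from its own mouse. The tests thus weigh a difference against the spread between these samples.

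Levels are log2 intensities after background correction and quantile normalization within a tissue. A level can be compared between arrays for 1 probe but not between probes. A probe counted as detected on an array when its detection p-value was under 0.01, and 10261 to 12340 probes were detected on a fat array and 8359 to 9293 on a liver array. Hepatocyte markers were detected on every liver array (7 or 8 of 8 genes) and adipocyte markers on every fat array (7 of 7), while 0 to 2 adipocyte markers were detected on a liver array. On a fat array 1 to 4 of 8 hepatocyte markers were detected. Their mean was highest on IH 18, at 6.26, and between 4.71 and 5.43 on the other fat arrays. Fat arrays IH 16 and IH 19 stood apart through markers of epididymis epithelium, with 6 and 7 of 7 markers detected and a mean level of 10.93 and 12.88. On the NO fat array 4, 3 of 7 were detected with a mean of 6.28, and on the other 13 fat arrays the mean lay between 4.77 and 5.15. IH 19 also had the lowest adipocyte marker mean, 9.14 against 10.82 to 11.93 on the other fat arrays. Within a tissue each of the 6 chips carried 1 exposure, so chip and exposure cannot be told apart by a comparison on 1 chip.

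The members differed in how they were spread over the tissues. Aqp7 was read in fat and not in liver, Aqp8 in liver and not in fat, and Aqp9 was far higher in liver, whereas Aqp1, Aqp11, Gpd1 and Gpd2 were detected in both. Between the NO groups, on values normalized over all 31 arrays, 6 of 7 members passed an adjusted p under 0.05 with limma, where 73% of all 8905 genes did. A bulk level cannot tell fewer cells of a type from less RNA per cell, here or below.

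AQP7 is the glycerol channel of the fat cell. On the NO fat arrays its brightest probe lay between 10.08 and 11.39 with a median of 10.34, and on the NO liver arrays between 4.61 and 5.07 with none detected. The groups of the tissues did not overlap, and every liver array read this gene at background. Set against the lowest detected signal of each liver array, Aqp7 was at least 17.8-fold higher in fat. Such a bound takes, for each dim array, the higher of the probe's own signal and the lowest signal of any detected probe. The bound itself was not tested, here or below. The limma test used the undetected signals as they stood (adjusted p = 1.72e-16). Among its other probes, 2 gave at least 14.4-fold and at least 5.27-fold, and the last was detected on 5 of 8 NO fat arrays.

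AQP8 lets water and other small molecules through and is known from the bile canaliculus and from mitochondria of the hepatocyte. Its brightest liver probe lay between 9.53 and 11.17 (median 10.29) under NO, and in fat between 4.31 and 4.52, with detection on 0 of 16 fat arrays. Liver was above fat by at least 28.1-fold at the probe that entered the joint fit and by at least 31.3-fold at the other. At the former, limma on the signals as they stood gave an adjusted p of 2.81e-22.

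AQP9 is the glycerol channel of the hepatocyte and is also made by epididymis epithelium and by some white blood cells. The single Aqp9 probe lay between 12.59 and 13.02 (median 12.85) on the NO liver arrays, the narrowest spread of the members detected there (SD 0.15, n = 8). On the NO fat arrays it was detected on 4 of 8 and lay between 4.58 and 9.85 (median 5.64). The difference was −6.66 on the log2 scale, fat minus liver (standard error 0.63, adjusted p = 5.33e-11), with the 4 undetected arrays taken at their signal, so that its size is not exact. Without NO 4, which carried epididymis markers, it was −7.18 (adjusted p = 5.74e-13).

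AQP1 is the water channel of endothelial cells, bile duct cells and red blood cells, and AQP11 lies in the endoplasmic reticulum. Aqp1 was 4.43-fold higher in fat (13.28 ± 0.31 against 11.13 ± 0.30, SD, n = 8 each, adjusted p = 2.27e-10), and its other probes read log2 differences of 2.73 and 2.60. Aqp11 went the other way, with 8.07 ± 0.66 in fat and 9.55 ± 0.29 in liver (SD, n = 8 each), a log2 difference of −1.48 (standard error 0.24, adjusted p = 2.59e-06). Its other probe gave −1.28. The authors' processed values, normalized apart in each tissue, move the median difference of all genes from 0.20 to 0.88, and with them Aqp11 differed by −0.04 (adjusted p = 0.864) and Gpd2 by 1.10 (adjusted p = 0.000704).

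The dehydrogenases differed less. Gpd1 was 1.80-fold higher in fat under NO (10.17 ± 0.58 against 9.32 ± 0.33, SD, n = 8 each, adjusted p = 0.00164), while under IH the log2 difference was 0.23 (adjusted p = 0.383). On the chip that held arrays of both tissues, 5 IH livers and 3 NO fat samples, the Gpd1 difference was 0.74 (adjusted p = 0.0598). Gpd2 had 9.84 ± 0.79 in fat and 9.84 ± 0.70 in liver under NO (SD, n = 8 each), a difference of 0.01 (standard error 0.32, adjusted p = 0.980), and under IH it was lower in fat by −0.90 (adjusted p = 0.0152). In order of level, Gpd2 ran from the IH liver (9.85) through the NO fat (9.84) and the NO liver (9.84) down to the IH fat (8.95), and the first 3 lay within 0.02 of each other. For Gpd1 the NO fat came first (10.17), then the IH fat (9.49), the NO liver (9.32) and the IH liver (9.26).

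**Figure D1:**
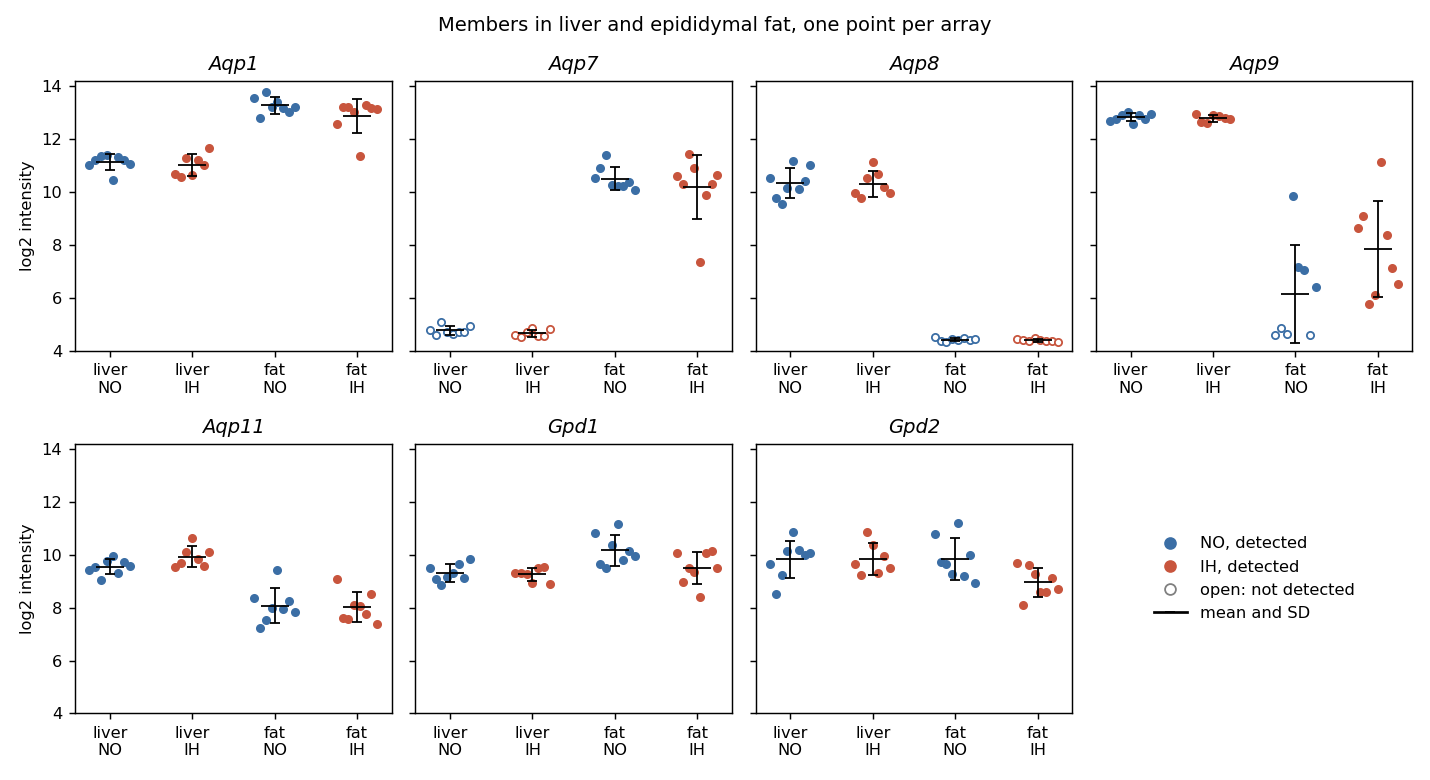
Log2 intensity of the 7 members with a probe, at the probe read for the gene, in liver NO, liver IH, fat NO and fat IH, 1 point per array, with the mean and SD as bars and open points for arrays on which the probe was not detected. Values were normalized within each tissue and levels of different genes share the axis only for space. Aqp7 is open in every liver array, Aqp8 in every fat array, and Aqp9 spreads from 4.58 to 11.12 in fat.

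Promoter windows are shown for the channels that divided between the tissues and for Gpd2, whose call in fat is given below. RefSeq (GRCm38.p6) gave 10 windows for 7 of the 8 genes, each from 250 bases before to 50 bases after a transcription start, and none for Gpd1. They were searched on both strands for AGGTCA (the hexamer of many nuclear receptors), ACGTG (the core of the element bound by hypoxia inducible factors), GTTAAT (part of the HNF1 element), the TATAAA box and the CCAAT box, which 16.3%, 19.6%, 7.1%, 13.6% and 37.4% of all 32851 windows hold. Those shares are for single windows, so they are not set against windows picked for their matches. For each gene the window with most matches is printed, 5′ to 3′ on the strand of the gene, with the matches in capitals.
Aqp7, chr4:41047913-41048212, minus strand: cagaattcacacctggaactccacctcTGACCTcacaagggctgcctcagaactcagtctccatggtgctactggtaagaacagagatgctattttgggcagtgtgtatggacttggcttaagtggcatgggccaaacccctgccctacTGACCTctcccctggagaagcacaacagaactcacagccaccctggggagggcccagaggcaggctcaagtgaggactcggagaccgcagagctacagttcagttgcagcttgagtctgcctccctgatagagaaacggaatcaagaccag
Aqp8, chr7:123462044-123462343, plus strand: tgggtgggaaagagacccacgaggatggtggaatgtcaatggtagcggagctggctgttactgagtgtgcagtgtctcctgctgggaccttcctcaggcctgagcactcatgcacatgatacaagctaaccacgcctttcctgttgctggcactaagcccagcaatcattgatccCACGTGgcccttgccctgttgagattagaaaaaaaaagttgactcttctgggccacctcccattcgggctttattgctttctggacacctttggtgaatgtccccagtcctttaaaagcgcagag
Aqp9, chr9:71162584-71162883, minus strand: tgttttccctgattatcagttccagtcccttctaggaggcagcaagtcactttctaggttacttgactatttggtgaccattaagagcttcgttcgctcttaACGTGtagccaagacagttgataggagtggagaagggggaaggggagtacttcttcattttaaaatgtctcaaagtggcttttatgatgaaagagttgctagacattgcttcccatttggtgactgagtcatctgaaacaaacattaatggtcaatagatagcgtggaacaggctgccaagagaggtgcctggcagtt
Gpd2, chr2:57238132-57238431, plus strand: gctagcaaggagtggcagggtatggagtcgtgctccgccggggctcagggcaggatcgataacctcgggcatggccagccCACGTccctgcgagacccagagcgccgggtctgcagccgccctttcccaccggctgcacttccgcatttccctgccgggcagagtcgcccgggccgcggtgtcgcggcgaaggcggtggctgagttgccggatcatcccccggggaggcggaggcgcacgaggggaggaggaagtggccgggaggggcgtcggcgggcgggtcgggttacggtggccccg
The Aqp7 window held AGGTCA on the opposite strand at −223 and −101 from the transcription start. The Aqp8 window held ACGTG on both strands at the overlapping positions −75 and −74, the Aqp9 window once at −148 and the Gpd2 window once, on the opposite strand, at −170. Overlapping matches such as that of Aqp8 are 1 palindrome read on both strands. The HNF1 letters and both boxes were in none of the 10 windows. The Aqp1 window and the Aqp9 and Gpd2 windows that are not printed held none of the 5. The other Aqp7 window overlaps the printed one and held AGGTCA once, at −49, which is the same stretch as the match at −223. Of the genes not printed, Aqp11 held AGGTCA once, at −230, and Gk held ACGTG on both strands, at −58 and −57. A match is a stretch of letters and not a measured binding site.

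In fat, IH against NO moved few of the members. Gpd2 fell, at a probe called by the test and further at its other probe, which was not detected on any IH fat array. Gpd1 was lower and Aqp9 higher on average without passing the adjusted test, and Aqp1, Aqp7 and Aqp11 stayed within the spread between arrays. Of the 6 members kept in fat 1 passed an adjusted p under 0.05, against 32.1% of 8207 genes (17.6% higher and 14.5% lower). The count of called members was thus not above the background of this tissue.

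GPD2 carries electrons from cytosolic glycerol 3-phosphate into the respiratory chain. At the brighter of its probes the NO fat arrays ran from 8.94 through a median of 9.70 to 11.19, and the IH fat arrays from 8.11 through 8.90 to 9.68. Every IH array lay below the NO mean, and the groups overlapped. The mean fell from 9.85 ± 0.78 (SD, n = 8) to 8.96 ± 0.55 (SD, n = 8), by 0.89 on the log2 scale (standard error 0.32, adjusted p = 0.0393 with limma, two-sided exact permutation p = 0.0190), to 53.9% of the NO level. The 95% interval ran from −1.56 to −0.22.

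The other Gpd2 probe gave a wider gap. Under NO it was detected on 8 of 8 fat arrays, between 5.98 and 8.11 (median 6.95), and under IH on 0 of 8, between 4.25 and 4.66 (median 4.45). The groups did not overlap. With the IH arrays taken at their lowest detected signal, the level was at least 3.27-fold lower under IH. The tests used the undetected signals as they stood (adjusted p = 1.72e-07 with limma over 11486 probes, exact permutation p = 0.000155, the smallest that 8 against 8 allow). The probe passed the filter of at least 8 fat arrays through its NO arrays alone. These p-values thus set signal against background and add nothing to the detection counts. In liver the same probe was detected on all 15 arrays, with 7.14 ± 0.49 on the NO arrays (SD, n = 8) and 7.39 ± 0.39 on the IH arrays (SD, n = 7). This kind of loss was seen at other probes too: 171 of the 9431 probes detected on every NO fat array (1.81%) were detected on no IH fat array, while 10 of 9590 showed the reverse. Of those 171, 58 had another probe of the same gene that was detected on all 16 fat arrays. The part of the array or chip in the gap between the Gpd2 probes was not tested.

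The call at the brighter Gpd2 probe was lost without any 1 of 10 of the 16 arrays. Without NO arrays 1, 2, 3, 5 or 7 its adjusted p was 0.0778, 0.0538, 0.0514, 0.0705 and 0.0630, and without IH arrays 16, 19, 20, 21 or 22 it was 0.0777, 0.0599, 0.0688, 0.0512 and 0.0646. Without IH 16 and IH 19, an alternative chosen after seeing the data, the difference was −0.69 (adjusted p = 0.121) at this probe. The other probe was still detected on none of the IH arrays. Its adjusted p over probes with limma, 2.76e-06, again used undetected signals as they stood. With chip as a random block the brighter probe had an adjusted p of 0.0626, and with each array's detected probe number in the model the difference was −0.61 (adjusted p = 0.135).

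**Figure D2:**
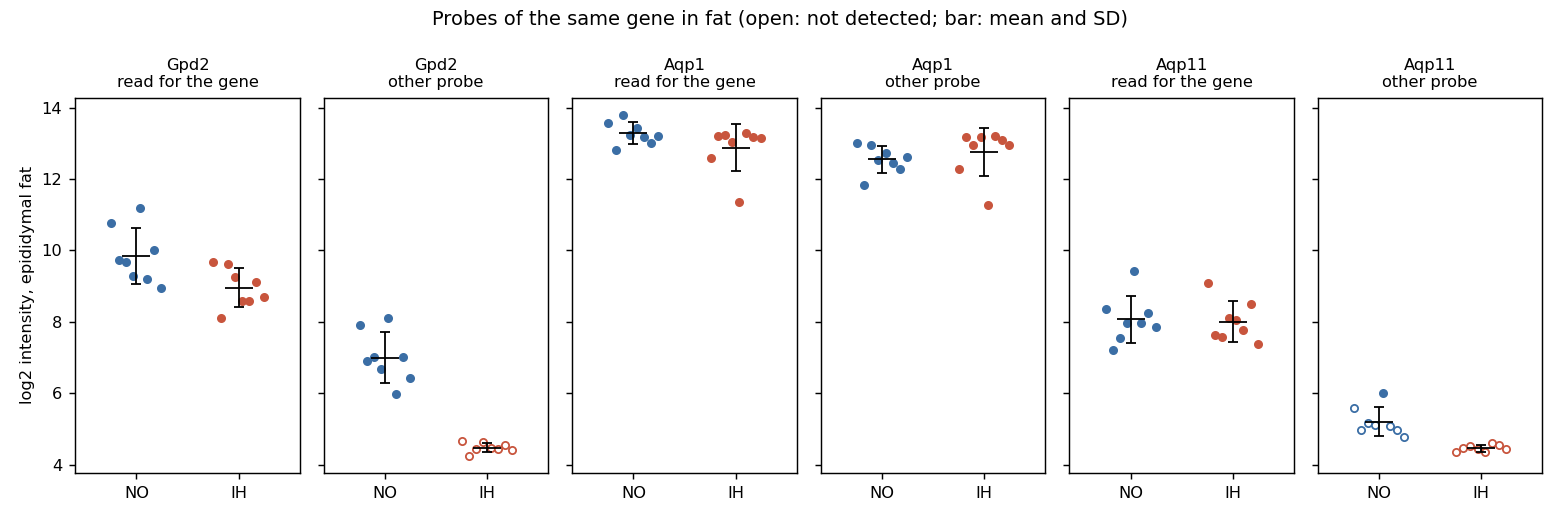
Log2 intensity in fat for the probe read for the gene and 1 other probe of Gpd2, Aqp1 and Aqp11, 8 NO arrays (blue) and 8 IH arrays (red) each, with the mean and SD as bars and open points for undetected arrays. The other Gpd2 probe drops to background on all 8 IH arrays, from 7.00 to 4.48, while the probe read for the gene falls by 0.89.

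GPD1 makes glycerol 3-phosphate from a glycolytic intermediate and so supplies the backbone of triglyceride in fat cells. Its probe ran from 9.49 through a median of 10.05 to 11.18 on the NO fat arrays and from 8.39 through 9.49 to 10.14 on the IH fat arrays. Every IH array lay below the NO mean, IH 19 lowest, with overlap of the groups. The difference was −0.68 (standard error 0.28, adjusted p = 0.0714 with limma, exact permutation p = 0.0378), which did not pass. Without NO 3 the adjusted p was 0.0492, and without IH 16 and IH 19 the difference was −0.41 (adjusted p = 0.227).

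Aqp9 had the widest spread of the members in fat. It was detected on NO 4, 5, 6 and 8 and on all 8 IH arrays, and ran from 4.58 through 5.64 to 9.85 under NO and from 5.77 through 7.75 to 11.12 under IH. The highest arrays were IH 19 (11.12), NO 4 (9.85), IH 16 (9.11), IH 15 (8.66) and IH 20 (8.39). The groups overlapped, and 6 of 8 IH arrays lay above the NO mean. The difference was 1.71 (standard error 0.84, adjusted p = 0.131 with limma, exact permutation p = 0.0848), with a 95% interval from −0.07 to 3.48. The undetected NO arrays were taken at their signal, so its size and interval are not exact.

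The 3 highest of these arrays were those with epididymis markers, a tissue that makes AQP9 and touches this fat pad. The summed intensity of those 7 markers ran from 933 to 5312 under NO and from 893 to 107262 under IH, and without NO 4, IH 16 and IH 19 from 933 to 989 and from 893 to 927. IH 15 and IH 20 had marker means of 4.82 and 4.90, within the range of the other arrays. The part of epididymis tissue in the Aqp9 values was not tested. Without IH 16 and IH 19 the Aqp9 difference was 0.95 (adjusted p = 0.378), and without NO 4 it was 2.23 (adjusted p = 0.0311), which passed. By chip, the 3 NO arrays of one chip lay between 4.58 and 4.85, all undetected, and the 5 NO arrays of the other between 4.60 and 9.85 (mean 7.02), while the IH chips had means of 8.15 (n = 5) and 7.34 (n = 3). The chip with the 3 undetected NO arrays had a mean of 4.69, and without NO 4 the other NO chip had a mean of 6.31 (n = 4).

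No difference between the exposures was detected for Aqp7. Its brightest probe ran from 10.08 through a median of 10.34 to 11.39 under NO and from 7.37 through 10.47 to 11.43 under IH. IH 19 lay alone at 7.37, and the next lowest IH array was at 9.90. The difference was −0.32 (standard error 0.42, adjusted p = 0.601), with a 95% interval from −1.21 to 0.58, and 4 of 8 IH arrays lay on each side of the NO mean. Without IH 16 and IH 19 it was 0.13 (adjusted p = 0.695). Without IH 19 alone it was 0.09 (adjusted p = 0.792) and without IH 16 alone −0.33 (adjusted p = 0.615), so the sign turned with IH 19. The other 3 probes gave −0.49, −0.12 and −0.07.

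**Figure D3:**
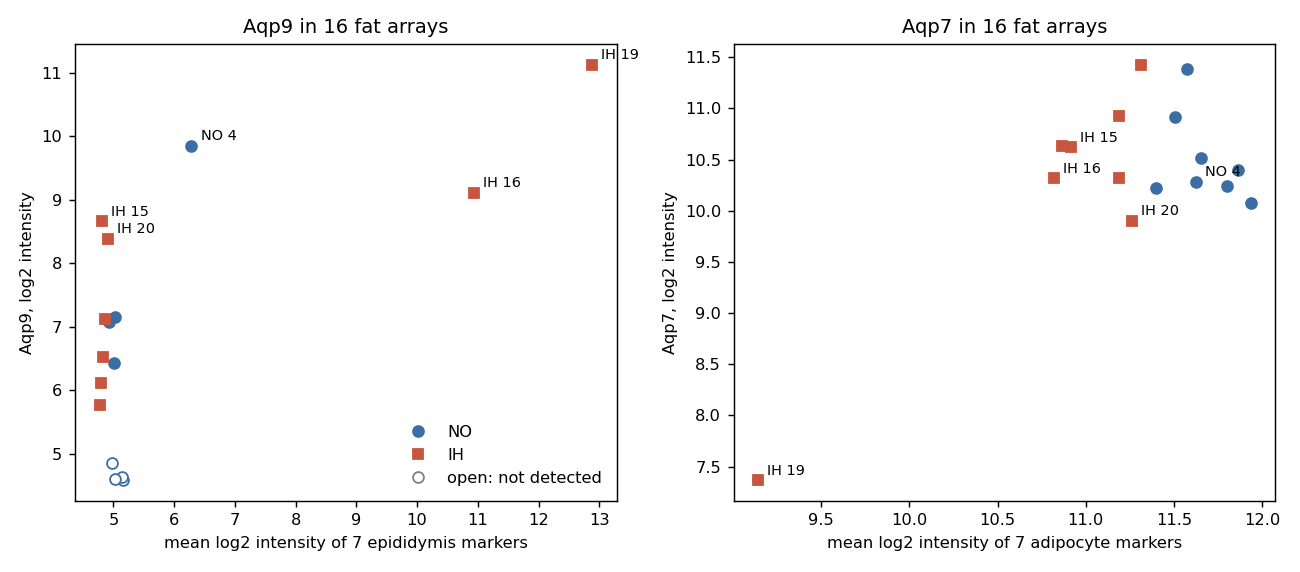
Log2 intensity of Aqp9 against the mean of 7 epididymis markers (left) and of Aqp7 against the mean of 7 adipocyte markers (right) on the 16 fat arrays, NO as circles and IH as squares, open where not detected. IH 16, IH 19 and NO 4 stand apart on the left with Aqp9 at 9.11 to 11.12, and IH 15 and IH 20 are high at low marker means. IH 19 is lowest on the right with Aqp7 at 7.37.

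The probes of Aqp1 disagreed in sign. The one read for the gene ran from 12.81 through 13.21 to 13.79 under NO and from 11.35 through 13.16 to 13.30 under IH, a difference of −0.40 (standard error 0.24, adjusted p = 0.221), while the others gave 0.21 and 0.25. IH 19 was lowest at all 3 probes. It was also lowest in endothelial markers, whose mean was 7.92 there and between 9.24 and 9.97 on the other fat arrays. Red blood cell markers were lowest there too (7.41, against 8.88 to 10.55), whereas bile duct (cholangiocyte) markers were highest (8.11, against 5.21 to 6.66). The part of these markers in the Aqp1 values was not tested. Without IH 16 and IH 19 the 3 probes gave −0.20, 0.39 and 0.46, and none passed over the probes (adjusted p = 0.338, 0.123 and 0.0863).

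Aqp11 ran from 7.23 through 7.97 to 9.43 under NO and from 7.37 through 7.91 to 9.09 under IH, a difference of −0.07 (standard error 0.29, adjusted p = 0.882). Its other probe was detected on 1 of 8 NO and 0 of 8 IH arrays, too few to enter the limma fit. Its signal was 4.78 to 6.00 under NO and 4.35 to 4.62 under IH (exact permutation test, two-sided, p = 0.000155, which is the lower limit for this design). The groups lay near background without overlap, so no size is given for this difference.

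In the liver, none of the 6 members kept passed the test, against 0.931% of 6443 genes (0.45% higher and 0.481% lower). limma called 0 of 6 at an adjusted p under 0.05 and 1 of 6 at an unadjusted p under 0.05, as 16.9% of all liver genes were, and a SAM type statistic called 0. The count of members at the unadjusted level is thus near the share of all genes. That member was Aqp11. It ran from 9.03 through 9.57 to 9.97 under NO and from 9.54 through 9.83 to 10.62 under IH, with 6 of 7 IH arrays above the NO mean. The difference was 0.38 (standard error 0.17, adjusted p = 0.263, exact permutation p = 0.0457), and its other probe gave 0.54 (adjusted p over probes 0.397).

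For the glycerol channel of the liver the interval was narrow. Aqp9 stood at 12.83 ± 0.15 on the NO arrays (SD, n = 8) and at 12.79 ± 0.13 on the IH arrays (SD, n = 7), a difference of −0.03 with a 95% interval from −0.22 to 0.15, whose lower bound is a 1.16-fold fall. The other members had wider intervals. Aqp8 differed by −0.02 (95% interval −0.56 to 0.52), Gpd1 by −0.06 (−0.39 to 0.26), Gpd2 by 0.01 (−0.65 to 0.67) and Aqp1 by −0.11 (−0.48 to 0.26). Each of these intervals holds values on both sides of 0. The other Aqp1 probes gave 0.17 and −0.03. Aqp7 was detected on 0 of 15 liver arrays at each of its 4 probes.

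**Figure D4:**
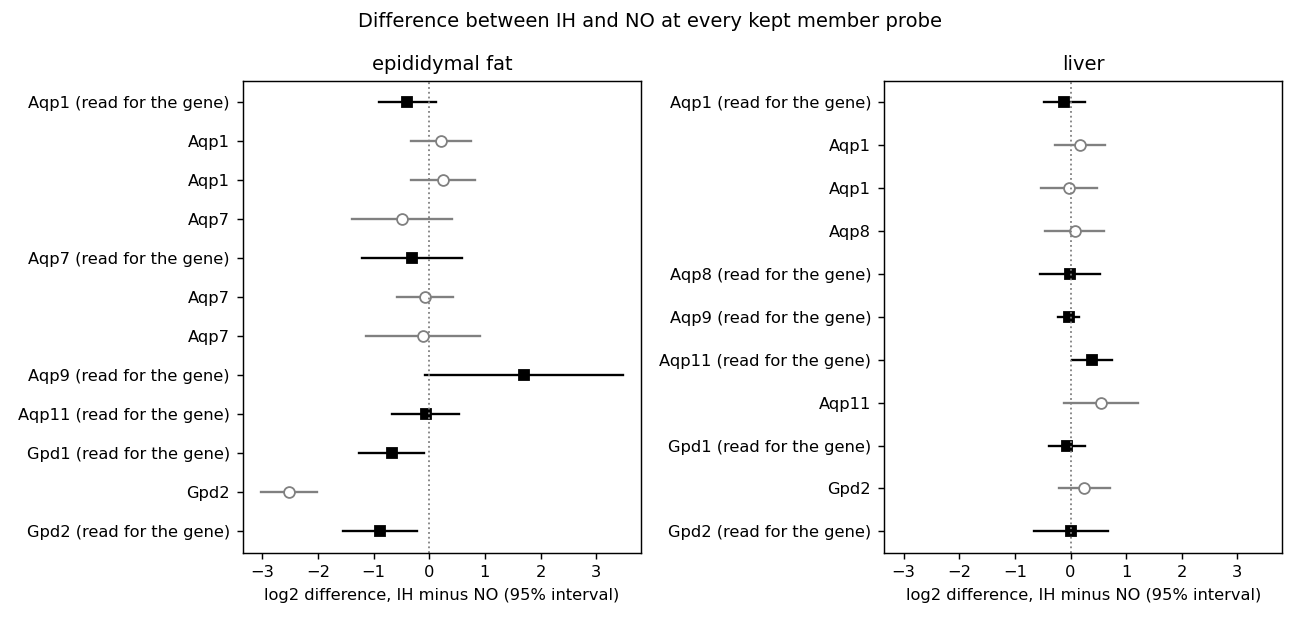
Log2 difference between IH and NO with its 95% interval at every kept probe of the members, in fat (left) and liver (right), filled squares for the probe read for the gene and open circles for other probes. In fat both Gpd2 probes and Gpd1 lie below 0 with their intervals, Aqp9 has the widest interval, and in liver the Aqp11 interval from 0.02 to 0.74 is the one that leaves out 0. Signals of undetected arrays enter as they stood, as at the other Gpd2 probe in IH fat.

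Whether the effect of IH differed between the tissues was tested directly. Of 7 members 0 passed with limma at the probe read for the gene, where 22.3% of 8905 genes did, and 0 had an unadjusted p under 0.05, where 34.3% did. The difference of the effects, fat minus liver, was −0.91 for Gpd2 (standard error 0.46, adjusted p = 0.161), −0.62 for Gpd1 (standard error 0.33, adjusted p = 0.189) and 1.69 for Aqp9 (standard error 0.90, adjusted p = 0.184). The Gpd2 probes parted here. When each of 12642 probes was tested on its own, an alternative chosen after seeing the data that called 22.4% of them, the other Gpd2 probe differed between the tissues (adjusted p over probes 2.35e-07). With its undetected IH fat arrays taken at their lowest detected signal, the difference of its effects was −1.96 or further below 0. On this scale the effect was −1.72 or further below 0 in fat and 0.24 in liver. The test used the undetected signals as they stood, and the probe was chosen after its loss from the IH fat arrays had been seen. That test is thus no separate evidence of a difference between the tissues for Gpd2, and the brighter probe did not pass. The other Aqp11 probe had an adjusted p of 0.0133, with its fat groups near background and no size. Without NO fat array 4 the difference for Aqp9 was 2.21 (adjusted p = 0.0374).

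Around the members, the lists for glycerol release and for making or using glycerol 3-phosphate held calls of lower level in the IH fat. They held none of higher level. Each list was counted whole, and of all 8207 genes 14.5% were called lower and 17.6% higher, with a median log2 difference of 0.11. With so few genes a list, these counts are not set apart from that background. The list for glycerol release from triglyceride holds lipases and also proteins that regulate them or coat the lipid droplet, some of which restrain release. Of its 9 genes measured, 2 fell and 0 rose, with a median of −0.36 and all 9 below 0. These were Lpl, lipoprotein lipase, called at an adjusted p of 0.0190, and Lipa, the lysosomal acid lipase, with −1.12 (standard error 0.39, adjusted p = 0.0365). The Lpl probe was the brightest of the array on 5 of 8 NO arrays and no lower than rank 11 on the others. Its levels, 15.03 under NO and 14.70 under IH, thus lay at the top of the shared scale, 15.09, and the size of its fall is not given. Pnpla2, the lipase that takes the first step, went from 14.81 ± 0.13 to 14.63 ± 0.74 (SD, n = 8 each). Without IH 16 and IH 19, 1 of 9 was called, 3 of 9 lay above 0 and the median was −0.15, and Lipa had an adjusted p of 0.0913.

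Among genes that build glycerolipids from glycerol 3-phosphate, 1 of 10 fell and 0 rose, with a median of −0.53 (−0.27 without IH 16 and IH 19). It was Agpat3, which adds the second acyl chain, and its probe fell by 2.38 on the log2 scale, from 9.43 ± 0.17 to 7.06 ± 0.30 (SD, n = 8 each, standard error of the difference 0.13, adjusted p = 1.07e-10). The groups lay apart, 9.22 to 9.69 against 6.58 to 7.41. In liver the same probe differed by 0.13 (adjusted p = 0.559).

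Among genes of glyceroneogenesis and glucose synthesis from glycerol, 2 of 7 fell and 0 rose, with a median of −0.33. Pck1, the enzyme that makes glycerol 3-phosphate possible from pyruvate in fasting fat, ran from 7.70 to 10.27 on the NO fat arrays and from 4.57 to 7.21 on the IH fat arrays. The groups did not overlap, and the level fell by 3.28 on the log2 scale (standard error 0.37, adjusted p = 1.91e-06), with 1 probe on the array for this gene. Pck1 was detected on 8 of 8 NO and 7 of 8 IH fat arrays. The undetected array was taken at its signal, so the size of the fall is not exact. In liver Pck1 stood at 9.08 ± 0.73 on the NO arrays (SD, n = 8) and at 10.06 ± 0.42 on the IH arrays (SD, n = 7), a difference of 0.98 that did not pass (adjusted p = 0.113). Slc37a4, the carrier that brings glucose 6-phosphate to its phosphatase, fell by 0.98 in fat (standard error 0.18, adjusted p = 0.000499), where 6 of 8 IH arrays detected it.

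The malate aspartate shuttle does the same work as the shuttle formed by GPD1 and GPD2, bringing electrons from the cytosol to the mitochondria. Of its 5 genes measured in fat, 2 fell and 1 rose, with a median of 0.29. Mdh1, the cytosolic malate dehydrogenase, fell by 1.44 (standard error 0.17, adjusted p = 2.34e-06), and its other probes gave −1.22 and −2.25, the last detected on 8 of 8 NO and 0 of 8 IH arrays like the dimmer Gpd2 probe. Mdh2, its mitochondrial partner, fell by 0.85 (standard error 0.15, adjusted p = 0.000339). Slc25a12, the aspartate and glutamate carrier aralar, rose by 0.89 (standard error 0.13, adjusted p = 4.39e-05).

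Of the other aquaporins, Aqp5, a water channel of gland and lung epithelium, was kept in fat as 1 of 7 and rose from 6.00 ± 0.17 to 6.90 ± 0.65 (SD, n = 8 each), by 0.90 (standard error 0.23, adjusted p = 0.00556). Its other probe was detected on no fat array. Mip, Aqp2, Aqp3, Aqp4, Aqp6 and Aqp12 were not kept in fat, and none of the 7 was kept in liver. In fat, the calls of Aqp5, Lpl, Agpat3, Pck1, Slc37a4, Mdh1, Mdh2 and Slc25a12 held whichever of the 16 arrays was left out and with chip as a random block. Because each chip carried 1 exposure of fat, the block cannot remove a chip effect shared by the chips of an exposure. The call of Lipa held in 7 of 16, and with the block its adjusted p was 0.0548. It was lost without NO 2, 4 or 5 or IH 15, 16, 19, 20, 21 or 22, with the adjusted p up to 0.0730. In liver 0 genes of these lists passed, and the nearest was Tpi1, triose phosphate isomerase, at −0.36 (standard error 0.09, adjusted p = 0.0656, and 0.0472 without IH 16).

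Among arrays of the same group some members varied together. In each tissue 15 pairs of members were compared on deviations from the group means, with permutations within groups and adjustment over the pairs. In fat 4 pairs passed for Pearson's r and 0 for Spearman's rho. Gpd1 and Gpd2 had r = 0.63 over 16 arrays (permutation p = 0.0117, adjusted 0.0440) and rho = 0.56 (permutation p = 0.0351, adjusted 0.175), and without the 2 arrays farthest from the Gpd1 median, IH 19 and NO 5, r was 0.52. With deviations taken from the chip means r was 0.82 (permutation p = 0.00220, adjusted 0.0162) and rho 0.81. The dehydrogenases were thus high or low on the same fat arrays within a chip.

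Aqp11 varied with both enzymes in fat. With Gpd1 it had r = 0.66 (permutation p = 0.00684, adjusted 0.0437) and rho = 0.62 (permutation p = 0.0160, adjusted 0.120), and with Gpd2 r = 0.65 (permutation p = 0.00874, adjusted 0.0437) and rho = 0.51 (permutation p = 0.0533, adjusted 0.190). Without NO 5 and IH 15, r was 0.45 and 0.32, so these relations rest in part on those arrays. NO 5 was the highest fat array of its group for all 3 genes. The chip-centred r was 0.77 for both pairs.

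Aqp7 and Aqp9 went in opposite directions in fat, with r = −0.70 (permutation p = 0.000290, adjusted 0.00435) and rho = −0.63 (permutation p = 0.00854, adjusted 0.120). Without IH 19 and IH 17, r was −0.55. Without IH 16 and IH 19, the pair Aqp11 and Gpd1 was the 1 of 15 that passed (r = 0.80, permutation p = 0.000860, adjusted 0.0129), and Gpd1 with Gpd2 had r = 0.59 (permutation p = 0.0484, adjusted 0.145). In liver 0 of 15 pairs passed, and the highest were Aqp8 with Aqp11 (r = 0.70, permutation p = 0.00475, adjusted 0.0712, rho = 0.59, adjusted 0.138) and Aqp8 with Gpd2 (r = 0.67, permutation p = 0.0102, adjusted 0.0766, rho = 0.74, adjusted 0.0567). These fell to 0.45 and 0.52 without NO 5 and IH 19. With deviations from the chip means, 1 liver pair passed, Aqp1 with Aqp8 at −0.76 (permutation p = 0.00236, adjusted 0.0354).

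**Figure D5:**
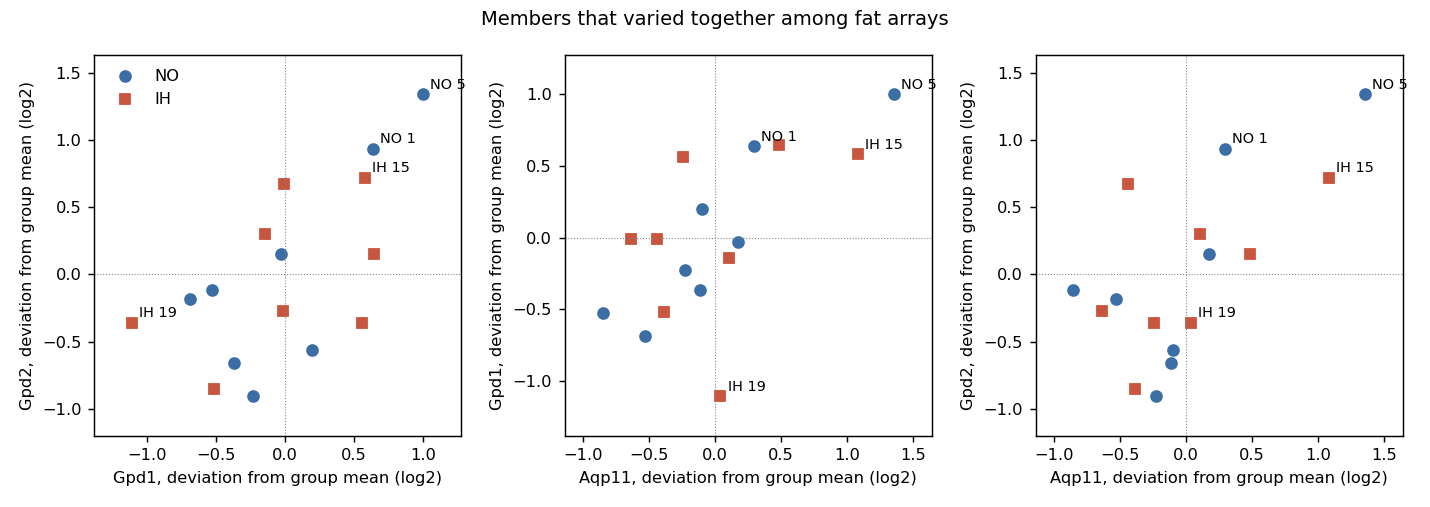
Deviations from the group mean, in log2 units, of Gpd2 against Gpd1, Gpd1 against Aqp11 and Gpd2 against Aqp11 on 16 fat arrays, NO as circles and IH as squares. NO 5 lies top right in all 3 panels, and r is 0.63, 0.66 and 0.65.

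The genes most like a member in these deviations were listed for the 3 members with the highest mean signal in each tissue, a choice that orders signals of different probes and says nothing of which gene is expressed most. In fat, over 16 arrays and 8206 other genes, Aqp1 was followed most closely by Pecam1, an endothelial adhesion molecule (r = 0.91), Pex16 (0.89) and Hspa9 (0.89). Aqp7 was followed by Slc1a3 (0.98), Mst1r (0.97) and Fitm2, a protein of lipid droplet formation (0.97), and Gpd1 by Pygl, the liver glycogen phosphorylase (0.86), Mrps18a (0.85) and Rpa1 (0.85). IH 19 was far below the rest for Aqp1 and Aqp7, and without it the values were 0.64, 0.60 and 0.58 for Aqp1, 0.92, 0.91 and 0.87 for Aqp7 and 0.80, 0.81 and 0.89 for Gpd1. In liver, over 15 arrays and 6442 other genes, Aqp1 was followed by Dab2 (0.89), Igfbp7 (0.85) and the endothelial gene Esam (0.84), Aqp8 by Acsl5 (0.87), Plagl2 (0.87) and G6pc, the glucose 6-phosphatase (0.87), and Aqp9 by Slc25a38 (0.88), Hmgxb3 (0.87) and Abhd2 (0.83). Without NO 5, the lowest liver array for Aqp1, the Aqp1 values were 0.84, 0.79 and 0.75, and those of the other members lay between 0.77 and 0.91. These are the highest of many correlations and carry no test.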

How the data were processed

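RNA of each sample was amplified from 250 ng and hybridized to Illumina MouseRef-8 v2.0 bead arrays. Per the study's methods the signals were read with GenomeStudio without added normalization, and the column kit named in the labels differs from the reagent named there. The authors deposited linear intensity values and a detection p-value for each probe. The deposited intensity table shares 1 distribution over the 31 arrays (sorted values within 1.05%), as after quantile normalization, and the authors' processed values were quantile normalized within each tissue.

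Intensities were background-corrected, quantile normalized and log2 transformed within each tissue by neqc of limma 3.58.1 (R 4.3.3, offset 16). Probes with a detection p-value under 0.01 on at least 8 fat or 7 liver arrays were kept, and the brightest kept probe stood for its gene. Of 25697 probes, 1719 had no symbol. Groups were compared with lmFit and eBayes, two-sided, with Benjamini-Hochberg adjustment over all genes, and each probe also with an exact permutation test over arrays. Tissue contrasts and their interaction used a fit over 31 arrays (detected on at least 7). Each fit was tested on simulated data. Alternatives covered normalization, filter, probe choice, test, chip, array weights and each array left out. The members and the lists (glycerol release, glycerolipid synthesis, glyceroneogenesis, kin enzymes, malate aspartate shuttle, other aquaporins, transcription factors, insulin signal and cell markers) were chosen with earlier results of these data known. All members, and of each list up to 4 genes with the smallest p plus any that passed, could be named. The methods' SAM test was run as an alternative. The number of arrays limits precision.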

Additional observations from a re-analysis of the deposited data

Results flagged for a closer look

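Of 46 groups of 7 or 8 arrays at a kept member probe, 8 held an array far from the others by Dixon's criterion, where chance alone gives about 5%. All 8 came from 2 arrays. IH fat array 19 was low at 2 Aqp1 probes (11.35 and 9.78, with the next array at 12.59 and 11.03) and at 3 Aqp7 probes (7.37, 6.86 and 5.51, with the next at 9.90, 9.41 and 8.22). Its epididymis marker mean was 12.88 and its adipocyte marker mean 9.14, and the part of either in these values was not tested. NO liver array 5 was low at all 3 Aqp1 probes, at 10.45, 8.95 and 7.40, with the next array at 11.03, 9.68 and 8.48. On the same array Aqp8 was at the top of its group (11.17). Probes of 1 gene share their RNA and are not separate evidence. The dimmer Gpd2 probe also differed between the tissues in the effect of IH (limma on its signals as they stood, adjusted p over probes 2.35e-07). With its undetected IH fat arrays at their lowest detected signal, the difference was −1.96 or further below 0, a bound that was not itself tested. This probe was chosen after its loss from the IH fat arrays had been seen. The brighter Gpd2 probe did not pass (adjusted p = 0.161).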

How the results depend on the processing

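In fat the count of members called, 1 in the reported fit, was 0 without the detection filter (Gpd2 adjusted p = 0.0685), under a random block for the chip and when each array's detected probe number entered the model, and 2 with the SAM type statistic, which added Aqp9 (false discovery rate 0.0382). It was also 0 without IH 16 and IH 19 and without these and NO 4, both chosen after seeing the data, and ran from 0 to 2 when each array was left out in turn. In liver it stayed at 0 under all 13 alternatives and with each array left out (from 0 to 0). Over all liver genes the count went from 60 to 5 with the chip block, 1 with the detected probe number, 220 with array weights and 5 to 99 with each array left out, so the liver background is uncertain. For the difference between tissues in the effect of IH it was 0, or 1 without NO fat array 4, and from 0 to 1 over all arrays left out, while the genes called went from 1984 to 1297 with the chip block. The tissue contrast called 6 of 7 members in the reported fit and with each array left out (from 6 to 6), and 5 on the chip with both tissues. Under IH it read −0.90 for Gpd2 in place of 0.01. The authors' processed values moved the median of all genes in this contrast from 0.20 to 0.88, and with them Aqp11 read −0.04 and Gpd2 1.10, so whether either is called between the tissues depends on that scaling. Of the member pairs, 4 passed in the reported setting, 5 with chip-centred deviations, 4 on deposited intensity and 1 without IH 16 and IH 19. Replicate numbers were shared by liver and fat titles, but of 15 such pairs 9 correlated above 0.1 (from −0.06 to 0.31) and 8 of 15 matched best with their own number. That is a hint of pairing in the data, but not every pair lay above 0.1 and the labels name no shared mouse, so the main fits have no pairing. With the replicate block the counts of members were 0 for the difference between tissues and 6 for the tissue contrast, and the genes called went from 1984 to 2066 and from 6503 to 6554. No paired analysis was possible within a tissue because NO and IH share no number.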

Other observations

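Other lists measured beside the members gave few calls in fat. Of the transcription factors that act on the members 0 of 9 were called (median −0.02), of the insulin signal genes 0 of 3 (−0.34), and of the kin of the member enzymes Fggy alone was kept (0.43, adjusted p = 0.0725), while Gpd1l, Gk2 and Gk5 were not. In liver these lists had 0 calls of 10, 2 and 1 kept genes. The medians over the liver lists were 0.15, 0.22 and 0.03, beside −0.01 over all genes.

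Cell markers in fat moved in both directions, beside 17.6% of all fat genes called higher and 14.5% called lower. Of the adipocyte markers 2 of 7 fell (median −0.52), and without IH 16 and IH 19 1 of 7 (−0.15). Smooth muscle markers rose in 3 of 4 (0.85, and 1.10 without those arrays), with IH 15 highest at a mean of 11.52, and macrophage markers fell in 2 of 4 (−1.01 and −0.71). Endothelial, red blood cell and brown or beige adipocyte markers each had 1 call, lower, among 8, 4 and 4 kept genes. Mesothelial markers had 1 higher and 2 lower of 8, cholangiocyte markers 1 higher of 3, hepatocyte markers 1 lower of 2, skeletal muscle markers 0 of 1 and epididymis markers 0 of 2. In liver no marker list had a call. The part of these markers in the values of the members was not tested.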
